A study of Mus musculus with 6 samples.

Results

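The G1 control genes described here are 10 rows of a table of 52636 mouse genes: the D-type cyclins Ccnd1, Ccnd2 and Ccnd3, the kinases Cdk4 and Cdk6, the CDK inhibitors Cdkn1a, Cdkn1b, Cdkn2a and Cdkn2b, and the retinoblastoma gene Rb1. They were taken by name, with earlier results of these data known, and all 10 had a row. Their RNA was measured in J110 and SSM3, 2 mouse mammary cancer cell lines, with 3 libraries per line. J110 was derived from mice carrying an AIB1 cDNA (AIB1 is the product of Ncoa3) driven by the MMTV LTR, a viral promoter active in mammary epithelium. SSM3 was derived from mammary tumours of genetically altered 129SvEv mice, and no strain is given for the J110 mice in the sources used here. No treatment is given for either line. Each is a single cell line, and serum, some supplements and the CO2 of the incubator differed between them, so line, mouse of origin, genotype and culture cannot be told apart. The study calls the 3 libraries of a line biological replicates, and the labels do not say whether they came from separate cultures, so the p-values measure the spread between these libraries only.

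In G1, cyclin D binds CDK4 or CDK6, and the active kinase phosphorylates RB1 and its relatives, which otherwise hold E2F transcription factors inactive. INK4 inhibitors, among them p16INK4a (Cdkn2a) and p15INK4b (Cdkn2b), bind CDK4 and CDK6 themselves, while the CIP/KIP proteins p21 (Cdkn1a) and p27 (Cdkn1b) bind assembled cyclin-CDK complexes and inhibit CDK2. Cdkn2a also encodes p19ARF from another reading frame, which restrains MDM2 and so stabilises p53. In the mammary gland cyclin D1 is required for the alveolar growth of pregnancy, and drugs that inhibit CDK4 and CDK6 are used against estrogen receptor-positive breast cancer.

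The libraries held from 4200785 to 5416305 counts. Counts were made from QuantSeq 3′ tags, about 1 per transcript, so levels are given as CPM, a gene's count in proportion to its library's total after TMM scaling, with no division by length. A floor of 3 counts corresponds to 0.578 to 0.668 CPM in these libraries. Replicate 3 of J110 held low counts on 14 of 21 genes that had at least 100 CPM in SSM3 and no count in the other J110 libraries, at 0.178% of their SSM3 level. By the same measure replicate 2 of SSM3 held counts on 17 of 18 such genes of J110, at 0.458%. The results without these libraries are given where a call changed. A ribosomal RNA locus took 15.1% to 17.2% of the counts in J110 and 0.779% to 1.27% in SSM3. Ncoa3 had 21.2 ± 0.166 CPM in J110 (mean ± SD over the 3 libraries of a line, here and below) and 39.9 ± 2.65 CPM in SSM3, so it was not higher in the AIB1 line, where the transgene is a cDNA that 3′ tags on the mouse gene need not show. Ncoa3 therefore does not check the labels. Of the epithelial markers, Krt8 (1275 CPM in J110 and 2270 in SSM3) and Krt18 (1430 and 970.0) were present in both lines, while the epithelial adhesion gene Epcam had 2, 1 and 7 counts in J110 against 2376, 2404 and 2412 in SSM3.

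The lines differed in which D-type cyclin, kinase and inhibitor RNAs they held. J110 had 9.13 times the Ccnd1, 9.39 times the Cdk6, 4.25 times the Rb1 and 1.94 times the Cdkn1a counts per library total of SSM3. SSM3 had 2.45 times the Ccnd3, 2.16 times the Cdkn1b and 1.17 times the Cdk4 of J110. For Rb1 and Ccnd3, exons shared with other genes leave the direction uncertain. Cdkn2a and Cdkn2b were counted in every SSM3 library and had 0 counts in all 3 J110 libraries. By the quasi-likelihood test of edgeR with Benjamini-Hochberg adjustment over 12284 genes, 9 of the 10 passed an adjusted p of 0.05, against 77.7% of all genes tested. Of these, 5 were higher in SSM3 and 4 were lower, where 38.5% of all genes were higher and 39.2% were lower. In all 10 genes the libraries of the lines did not overlap, which also holds for 79.6% of genes tested, so these counts say little about the members, and the sizes and directions are given gene by gene. Cdkn2a and Cdkn2b passed the filter on low counts through their SSM3 libraries alone.

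By level of 3′ tags, the order in J110 was Ccnd1, Cdk6, Cdkn1a, Cdk4, Cdkn1b, Ccnd3, Rb1 and Ccnd2, and the libraries of neighbours in this order did not overlap. In SSM3 the order was Ccnd1, Cdkn1b, Cdk4, Ccnd3, Cdkn1a, Cdkn2a, Cdk6, Rb1, Cdkn2b and Ccnd2. Its first 3 genes, at 206, 185 and 172 CPM, each overlapped their neighbour, as did the last 3, at 7.31, 6.21 and 4.27 CPM. These orders take the counts as deposited, and the places of Ccnd1, Ccnd3, Cdk4 and Rb1 could change if counts were shared with the genes on the opposite strand described below.

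**Figure D1:**
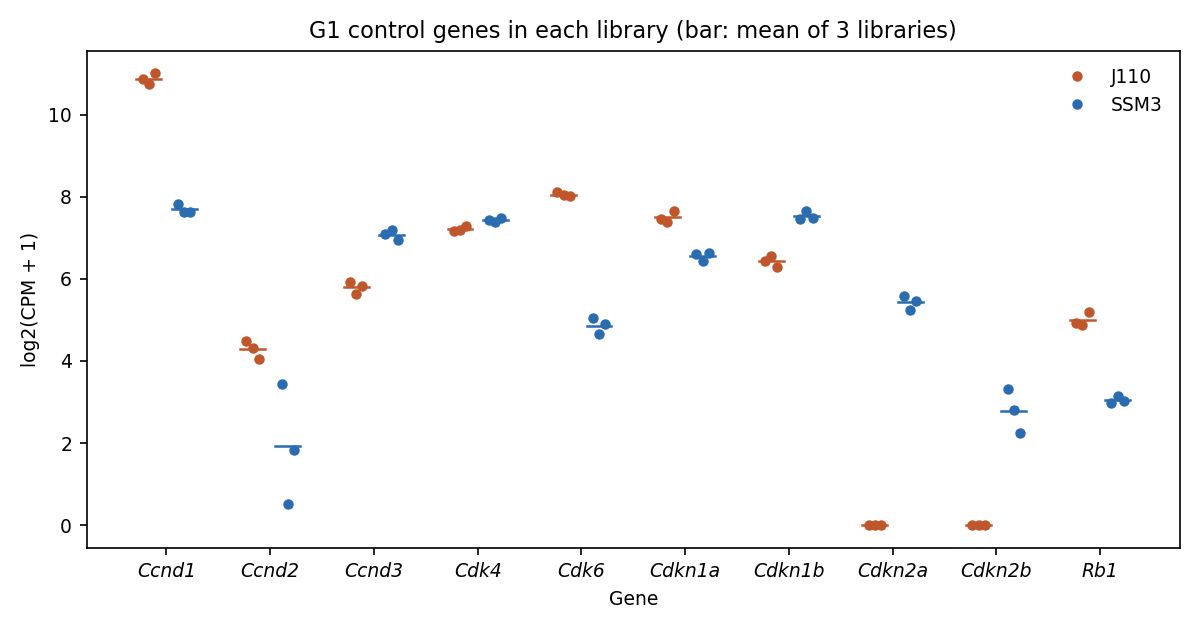
Level of each G1 control gene in every library, as log2 of CPM plus 1, with J110 in orange, SSM3 in blue and a bar at the mean of the 3 libraries of a line. The points of the lines are apart in each gene, the widest gaps are in Ccnd1, Cdk6 and Cdkn2a, Cdk4 has the narrowest, and the SSM3 libraries of Ccnd2 range from 0.425 to 9.80 CPM.

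Ccnd1 encodes cyclin D1, a target of mitogen and estrogen signalling (ENSMUSG00000070348, mm10 chr7:144929931-144939925, minus strand). It had 9696, 8699 and 9849 counts in J110 and 1015, 921 and 990 in SSM3. Its mean level was 1882 ± 168 CPM in the J110 libraries, against 206 ± 17.2 CPM for SSM3. The log2 fold change of SSM3 against J110 was -3.19 (SE 0.081, adjusted p = 4.72e-20 by edgeR's quasi-likelihood test).

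Ccnd1 shares 1100 exonic bases with LTO1, which lies on the opposite strand and is known for a part in ribosome biogenesis. The larger stretch, chr7:144929931-144930748, holds 818 bases and the coding 3′ end of Ccnd1, where 3′ tags fall, and the smaller, chr7:144931420-144931701, holds 282. The strand setting of the counting and its handling of reads in more than 1 gene are not given in the sources used here. LTO1 had 7330, 6508 and 6840 counts in J110 and 877, 854 and 909 in SSM3, which is 69.4% to 75.6% of the Ccnd1 counts in J110 and 86.4% to 92.7% in SSM3. It moved with Ccnd1, at -2.89 on the log2 scale (SE 0.072, adjusted p = 9.88e-21, edgeR). If reads in the shared stretches were counted for both genes, at least the counts of Ccnd1 beyond those of LTO1 lay elsewhere in Ccnd1. These counts beyond LTO1 were 2366, 2191 and 3009 in J110 and 138, 67 and 81 in SSM3, or 506 and 20.4 CPM on average. On this smaller quantity J110 was 24.8 times SSM3, so the direction of Ccnd1 was the same with and without the counts that LTO1 could share. The other genes beside Ccnd1 went in different directions. Ano1, a chloride channel gene of the same amplified region in human tumours, had 358 ± 9.15 CPM in J110 and 369 ± 44.2 CPM in SSM3 (log2 fold change 0.04, adjusted p = 0.612, edgeR), Fadd and Ppfia1 were higher in SSM3 by 0.98 and 0.58, and Cttn, a cortical actin regulator, fell by 0.91.

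Ccnd3 encodes cyclin D3, the D-type cyclin of many differentiating tissues (ENSMUSG00000034165, chr17:47505051-47599691, plus strand). It had 309, 247 and 268 counts in J110 and 607, 684 and 613 in SSM3, with every SSM3 library above every J110 library. The level rose from 54.8 ± 5.45 CPM in J110 to 134 ± 11.7 CPM in SSM3, at a log2 fold change of 1.29 (SE 0.098, adjusted p = 2.07e-11, edgeR). Ccnd3 shares 361 bases, its coding 3′ end among them, with Bysl, a ribosome biogenesis gene on the opposite strand. Bysl had 436, 377 and 379 counts in J110 and 803, 887 and 851 in SSM3, more than Ccnd3 in every library, and rose by 1.17 (SE 0.085), so the counts do not separate the rise of Ccnd3 from that of Bysl.

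Ccnd2 encodes cyclin D2 (ENSMUSG00000000184, chr6:127125162-127152193, minus strand). It had 112, 95 and 75 counts in J110 and 44, 2 and 13 in SSM3. The SSM3 libraries differed among themselves by more than those of any other G1 control gene relative to their mean, at 4.27 ± 4.91 CPM against 18.7 ± 2.97 CPM in J110. The log2 fold change of -2.16 (SE 0.75) did not pass, with an adjusted p of 0.0529 by edgeR. The call depended on SSM3 replicates 1 and 2: without replicate 1 the value was -3.58 and the adjusted p 1.51e-08, and without SSM3 replicate 2, which had the 2 counts, they were -1.62 and 0.0131. Without either library Ccnd2 was lower in SSM3. The overlapping genes Gm43126 (27, 15 and 14 counts in J110, 8, 0 and 0 in SSM3) and 9330179D12Rik (0 in each) share exons with it, and its counts beyond those of Gm43126 were 85, 80 and 61 in J110 and 36, 2 and 13 in SSM3.

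Summed over the D-type cyclins, J110 had 1955 ± 169 CPM and SSM3 345 ± 24.9 CPM, 5.67 times less. As counted, Ccnd1 held 96.2% ± 0.398 of the D-type cyclin counts in J110 and 59.8% ± 2.19 in SSM3 (SD, n = 3). Ccnd3 held 2.81% ± 0.222 in J110 and 39.0% ± 3.20 in SSM3, and Ccnd2 held 0.965% ± 0.200 and 1.19% ± 1.30. These shares take the counts as deposited and depend on how many were shared with LTO1 and Bysl. Beyond the counts of the opposite-strand genes, Ccnd1 had 506 CPM in J110 and 20.4 in SSM3, Ccnd2 had 15.0 and 3.68, and Ccnd3 had none in any library, so on these counts Ccnd3 could hold none of the sum in either line.

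**Figure D2:**
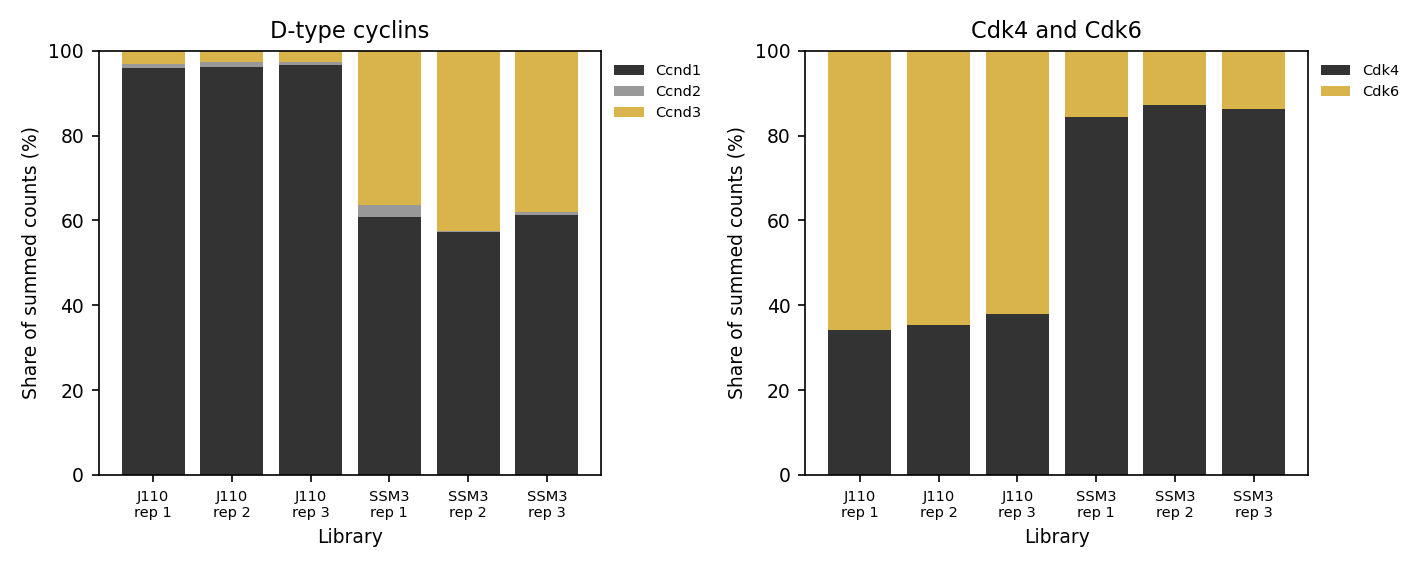
Share of the summed counts, in percent, held by each D-type cyclin (left) and by Cdk4 and Cdk6 (right) in each of the 6 libraries. As counted, with counts that LTO1 and Bysl could share, Ccnd1 fills 96.2% of the J110 bars on average and 59.8% of the SSM3 bars, and Cdk6 fills 62.2% to 65.9% of the J110 bars and 12.7% to 15.6% of the SSM3 bars.

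**Figure D3:**
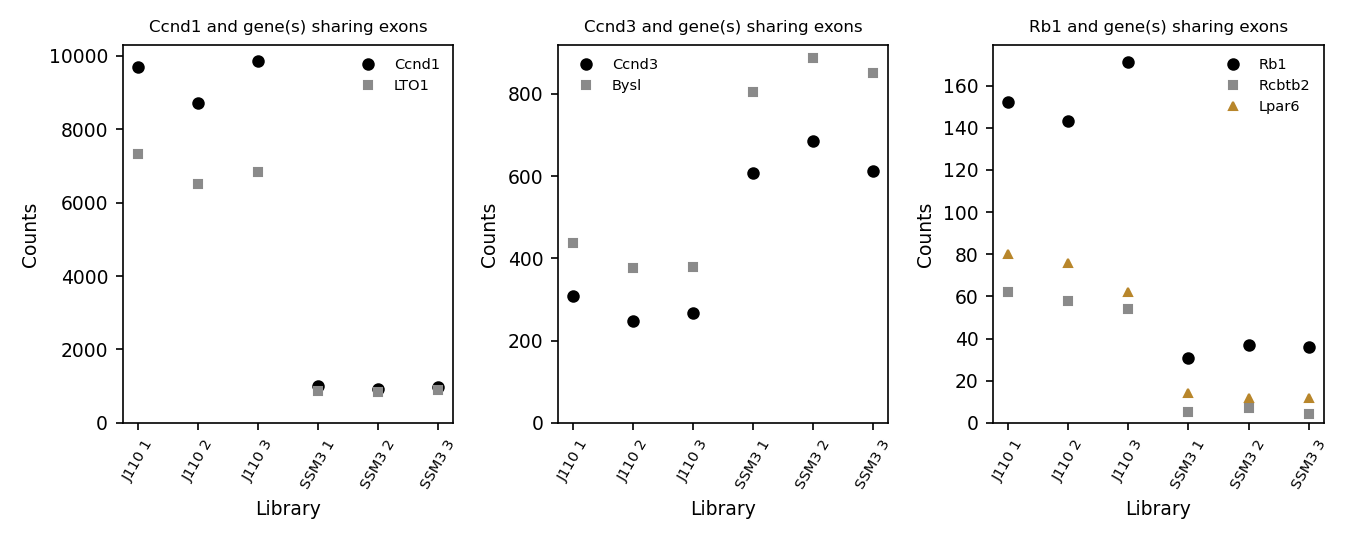
Counts of Ccnd1, Ccnd3 and Rb1 in each library beside the genes on the opposite strand that share exons with them. LTO1 lies under Ccnd1 in all 6 libraries, Bysl lies above Ccnd3 in all 6, and Rcbtb2 and Lpar6 lie under Rb1 and move with it.

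Cdk6 encodes the D-type cyclin partner best known from blood cells (ENSMUSG00000040274, chr5:3341485-3531008, plus strand). It had 1430, 1330 and 1228 counts in J110 and 143, 114 and 144 in SSM3, with no overlap. The level fell by 3.23 on the log2 scale, from 265 ± 9.86 CPM to 28.2 ± 3.83 CPM (SE 0.098, adjusted p = 4.58e-19, edgeR). Its overlapping gene Gm17590 had at most 3 counts in a library.

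Cdk4 encodes the partner found in most proliferating cells (ENSMUSG00000006728, chr10:127063534-127067920, plus strand). Cdk4 had 740, 729 and 747 counts in J110 and 773, 782 and 897 in SSM3. In CPM these were 143, 144 and 156 against 172, 166 and 178, so the lines did not overlap but lay close. The log2 fold change was 0.22 (SE 0.077, adjusted p = 0.0114, edgeR). This small difference depended on the libraries: without J110 replicate 1 it was 0.19 with an adjusted p of 0.0662, without J110 replicate 2 it was 0.20 with 0.0586, and with library size only, with no TMM factor, it was 0.40 with 5.63e-05. Cdk4 shares 641 bases, its coding 3′ end among them, with Tspan31 on the opposite strand (257, 237 and 273 counts in J110, 246, 232 and 309 in SSM3), and its counts beyond those of Tspan31 were 96.4 CPM in J110 and 117 CPM in SSM3.

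Together Cdk4 and Cdk6 had 413 ± 5.56 CPM in J110 and 200.5 ± 8.97 CPM in SSM3. Cdk6 made up 65.9%, 64.6% and 62.2% of this sum in the J110 libraries and 15.6%, 12.7% and 13.8% in the SSM3 libraries. The kinase with the higher level was therefore Cdk6 in J110 and Cdk4 in SSM3, with no library of either line in between.

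The Cdk4 promoter is shown because it holds 4 copies of the E-box CACGTG, the letters that MYC and MAX bind. Promoter windows are those of RefSeq on GRCm38.p6, from 250 bases before a start to 50 after it, 300 bases in all, and were found for 7 of the 10 genes. Ccnd1, Ccnd2 and Rb1 had none. The windows of the 7 genes were searched on both strands for CACGTG, for the E2F letters TTTCCCGC, TTTCGCGC, TTTGCCGC and TTTGGCGC, for GGGGCGGGG (the GC box that Sp1 binds) and for the p53 half-site cores CATG and CATG with 6 bases between them. These motifs were chosen after the windows were seen, none of them overlaps another in the windows printed, and a match is a description of letters, not of binding. CACGTG is in 7.15% of 32851 windows and 4 or more copies are in 0.0244%. Capitals mark the E-boxes and the GC box in Cdk4, chr10:127063285-127063584, plus strand.
Cdk4 promoter: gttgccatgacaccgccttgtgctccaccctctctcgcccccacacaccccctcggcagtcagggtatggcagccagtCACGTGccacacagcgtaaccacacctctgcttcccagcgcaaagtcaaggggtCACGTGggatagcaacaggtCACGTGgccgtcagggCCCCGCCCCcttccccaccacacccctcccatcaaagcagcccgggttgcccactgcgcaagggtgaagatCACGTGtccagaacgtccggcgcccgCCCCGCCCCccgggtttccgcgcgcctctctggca
The GC box is there on the minus strand in 2 places, and GGGGCGGGG is in 11.4% of all windows. The Cdk6 window holds 1 E-box and the Ccnd3 windows hold 1 and 2 GC boxes.

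The CIP/KIP inhibitors moved in opposite directions. Cdkn1a, which encodes p21, the inhibitor that p53 induces (ENSMUSG00000023067, chr17:29090976-29100727, plus strand), was counted 905, 844 and 959 times in J110 and 432, 406 and 489 in SSM3. Its level was 181 ± 17.4 CPM in J110 and 93.2 ± 6.11 CPM in SSM3, a log2 fold change of -0.95 (SE 0.088, adjusted p = 8.09e-10, edgeR). Cdkn1b, which encodes p27, the inhibitor of quiescent cells (ENSMUSG00000003031, chr6:134920401-134925513, plus strand), was counted 446, 472 and 372 times in J110 and 780, 949 and 898 in SSM3. Cdkn1b rose from 85.7 ± 7.87 CPM to 185 ± 14.8 CPM, at 1.11 on the log2 scale (SE 0.089, adjusted p = 6.55e-11, edgeR). The J110 libraries all had more Cdkn1a than Cdkn1b and the SSM3 libraries all had more Cdkn1b than Cdkn1a. Their sum was 266 ± 10.03 CPM in J110 and 278 ± 9.08 CPM in SSM3, with SDs that overlapped, and was not tested. Neither gene shares an exon with another gene.

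Of the windows at the Cdkn1a starts, the upstream one is shown because it holds the p53 half-site cores, which 0.712% of all windows do. It lies at chr17:29090729-29091028 on the plus strand, and capitals mark the match with the bases between the cores.
Cdkn1a upstream promoter: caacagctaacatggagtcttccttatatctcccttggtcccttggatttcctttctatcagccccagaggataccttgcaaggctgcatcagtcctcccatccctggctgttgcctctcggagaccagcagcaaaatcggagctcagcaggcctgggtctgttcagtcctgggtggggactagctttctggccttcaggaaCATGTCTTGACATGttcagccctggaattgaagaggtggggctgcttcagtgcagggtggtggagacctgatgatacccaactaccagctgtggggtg
The window at the other Cdkn1a start holds 1 GC box, and the Cdkn1b window holds none of the motifs. Among 10 genes of the p53 axis, 3 were higher in SSM3, 6 were lower and 1 did not pass, with a median log2 fold change of -0.70 beside -0.014 for all genes tested. Ccng1, which encodes cyclin G1, fell from 583 ± 17.6 CPM in J110 to 129 ± 1.10 CPM in SSM3, at -2.18 (SE 0.070, adjusted p = 1.25e-18, edgeR). Mdm2, the ubiquitin ligase of p53, fell from 316 ± 10.4 to 122 ± 3.65 CPM, at -1.37 (SE 0.073, adjusted p = 2.80e-14, edgeR). Against them Btg2, an antiproliferative p53 target, rose by 1.45 (SE 0.14), and Mdm4, the partner of MDM2, by 0.35 (SE 0.10).

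Cdkn2a and Cdkn2b were present in SSM3 and not detected in J110. Cdkn2a (ENSMUSG00000044303, chr4:89274471-89294653, minus strand) had 0 counts in each J110 library and 212, 175 and 216 in the SSM3 libraries, or 42.5 ± 5.04 CPM. Against the floor of 3 counts per library, the SSM3 level of Cdkn2a was at least 67.8-fold higher, with an adjusted p of 7.81e-16 by edgeR. Cdkn2b (ENSMUSG00000073802, chr4:89306299-89311039, minus strand) had 0 counts in each J110 library and 40, 28 and 19 in SSM3, or 6.21 ± 2.57 CPM. Its SSM3 level was at least 9.92-fold higher than the floor, with an adjusted p of 1.48e-07 by edgeR. Both genes passed the filter on low counts through SSM3 alone, so their p-values add no support beyond the counts. The floor of 3 counts is up to 0.626 CPM in a J110 library, so RNA below that level was not detectable. Neither gene shares an exon with another gene. With Cdkn2a and Cdkn2b added, the 4 inhibitors summed to 266 ± 10.03 CPM in J110 and 327 ± 4.08 CPM in SSM3.

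The Cdkn2a counts do not tell p16INK4a from p19ARF. The annotation gives 2 transcripts of 3 exons, Cdkn2a-201 of 852 bases and Cdkn2a-202 of 895 bases, which start 12461 bases apart and share 575 exonic bases toward the 3′ end, where the tags fall. The promoters of the locus are shown as the starts from which the counted RNA of SSM3 can come, with the E2F letters and the GC box in capitals. They lie on the minus strand of GRCm38.p6, at chr4:89294570-89294869 for the distal start, near that of Cdkn2a-202, chr4:89282143-89282442 for the proximal start of Cdkn2a-201 and chr4:89310983-89311282 for Cdkn2b.
Cdkn2a distal promoter: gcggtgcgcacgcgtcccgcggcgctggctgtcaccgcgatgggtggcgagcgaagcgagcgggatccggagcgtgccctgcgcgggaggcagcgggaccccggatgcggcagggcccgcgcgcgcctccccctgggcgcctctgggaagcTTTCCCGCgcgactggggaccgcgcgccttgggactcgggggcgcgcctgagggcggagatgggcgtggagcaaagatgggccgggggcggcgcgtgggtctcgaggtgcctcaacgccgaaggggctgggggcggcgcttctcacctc
Cdkn2a proximal promoter: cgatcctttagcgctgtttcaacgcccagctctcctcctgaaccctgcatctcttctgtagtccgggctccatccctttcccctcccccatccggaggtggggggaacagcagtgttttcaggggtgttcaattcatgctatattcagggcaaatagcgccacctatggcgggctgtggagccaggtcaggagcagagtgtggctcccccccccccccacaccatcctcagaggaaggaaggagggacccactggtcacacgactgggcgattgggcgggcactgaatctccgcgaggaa
Cdkn2b promoter: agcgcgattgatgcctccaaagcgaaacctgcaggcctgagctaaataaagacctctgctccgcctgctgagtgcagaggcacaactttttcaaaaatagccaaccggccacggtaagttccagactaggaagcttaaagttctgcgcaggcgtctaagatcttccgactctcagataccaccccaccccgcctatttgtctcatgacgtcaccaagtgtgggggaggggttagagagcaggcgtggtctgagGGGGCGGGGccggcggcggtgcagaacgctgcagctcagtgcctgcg
The distal Cdkn2a window holds 1 E2F match, which 2.26% of all windows do, the proximal window holds no match to any motif searched, and the Cdkn2b window holds 1 GC box.

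Genes beside Cdkn2a went in both directions. Mtap, which encodes the methionine salvage enzyme next to Cdkn2a, had 5478, 5502 and 4915 counts in J110 and 186, 211 and 201 in SSM3, the reverse of Cdkn2a. Mtap was 1057 ± 31.3 CPM in J110 and 42.1 ± 2.47 CPM in SSM3 (log2 fold change -4.65, SE 0.080, adjusted p = 1.67e-23, edgeR). Wincr1, a noncoding gene named after its values were seen, had 402, 422 and 349 counts in J110 and 0, 3 and 0 in SSM3. Dmrta1, a transcription factor gene on the other side, had 35, 27 and 30 counts in J110 and 0 in each SSM3 library, at least 9.16-fold lower. Farther out, Hacd4 rose by 1.26 (SE 0.13), Focad by 0.39 (SE 0.15) and Tusc1 by 1.60 (SE 0.26) in SSM3, Klhl9 fell by 0.53 (SE 0.19), and Mllt3 did not pass (0.19, adjusted p = 0.113, edgeR). Of 7 other genes tested within 1 Mb of Cdkn2a, 3 were higher in SSM3, Cdkn2b among them, and 4 were lower, so RNA from both sides of Cdkn2a and Cdkn2b was counted in J110. The counts are of RNA and hold no measure of DNA copies.

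Among 10 genes that repress Cdkn2a or act on that repression, 4 were higher in SSM3, 5 were lower and 1 did not pass, with a median of -0.086, which turned to 0.090 with library size only, where 5 were higher and 2 were lower. Bmi1, a Polycomb repressor of the INK4 locus, was higher in the line with Cdkn2a RNA, at 275 ± 24.3 CPM against 57.7 ± 2.88 CPM in J110 (log2 fold change 2.25, SE 0.087, adjusted p = 5.37e-17, edgeR). Ezh2, a Polycomb methyltransferase, was lower in SSM3 at -0.66 (SE 0.093, adjusted p = 7.71e-07), Id1, an inhibitor of basic helix-loop-helix factors, at -0.21 (SE 0.077, adjusted p = 0.0159), and Kdm6b, a histone demethylase, was higher at 0.78 (SE 0.14, adjusted p = 2.42e-05, edgeR). Of the remaining CDK inhibitors, Cdkn2d (p19INK4d) fell by 0.41 (SE 0.11, adjusted p = 0.00141, edgeR), a call that was lost with library size only. Cdkn2c (p18INK4c) was at 0.04 (adjusted p = 0.849, edgeR), and Cdkn1c (p57) had 0, 2 and 1 counts in J110 and 0 in SSM3.

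Rb1 encodes the retinoblastoma protein (ENSMUSG00000022105, chr14:73183673-73325822, minus strand). It had 152, 143 and 171 counts in J110 and 31, 37 and 36 in SSM3, so each J110 library had more counts than the SSM3 libraries combined. As counted, its level was 31.1 ± 4.01 CPM in J110 libraries and 7.31 ± 0.493 CPM for SSM3, at a log2 fold change of -2.08 (SE 0.17, adjusted p = 5.25e-11, edgeR).

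Rb1 shares exons with a pair of genes on the opposite strand: 488 bases with Rcbtb2 and 408 with Lpar6, a lysophosphatidic acid receptor gene that lies in an Rb1 intron. None of these stretches is at the coding 3′ end of Rb1, the nearest being 11447 bases from it. Rcbtb2 had 62, 58 and 54 counts in J110 and 5, 7 and 4 in SSM3, and Lpar6 had 80, 76 and 62 in J110 and 14, 12 and 12 in SSM3. Rb1 counts beyond the sum of both were 10, 9 and 55 in J110 and 12, 18 and 20 in SSM3, or 5.06 and 3.49 CPM on average, and these libraries overlapped. If every count of Rcbtb2 and Lpar6 were also counted for Rb1, the remaining Rb1 counts would not set a direction, and how many were shared is not known.

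Counts of the genes around Rb1 on chromosome 14 were also lower in SSM3, in windows chosen after the values were seen. All 6 genes tested within 1 Mb of Rb1 were lower in SSM3, with log2 fold changes from -3.33 to -1.68 and a median of -2.40. Of these, 3 share no exon with another gene and were also lower. The 6 genes include Itm2b, a membrane protein gene with 2616, 2596 and 2516 counts in J110 and 245, 217 and 273 in SSM3, which fell from 514 ± 10.4 to 51.7 ± 4.83 CPM. Med4, a Mediator subunit, fell by 1.68, Sucla2, a mitochondrial succinyl-CoA ligase subunit, by 2.19, and Fndc3a by 2.38. Within 5 Mb, 40 of 42 genes tested were lower (95.2%) with a median of -2.40, and 30 of 31 that share no exon were. The exceptions were Lcp1, an actin-bundling protein of blood cells, at 1.96, and Dmtn, an actin-binding protein, at 3.77. Over the 399 genes tested on chromosome 14, 58.1% were lower with a median of -0.61, beside 39.2% and -0.014 over all genes tested. These genes are neighbours, not replicates, and no cause was tested.

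**Figure D4:**
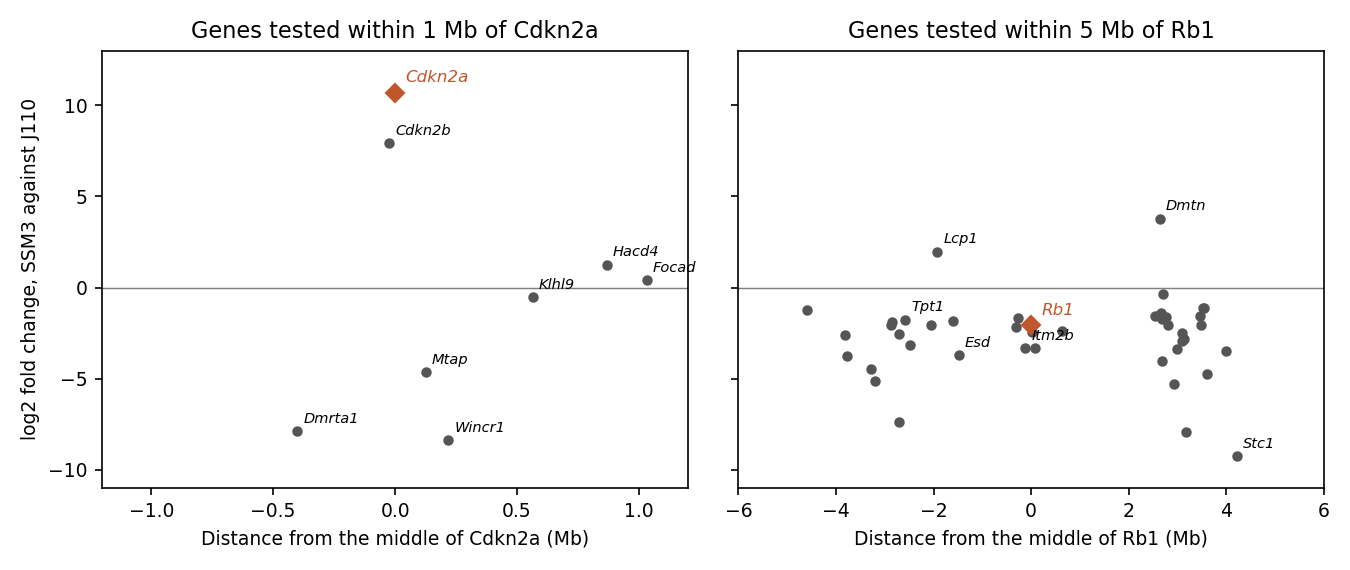
Log2 fold change of SSM3 against J110 for each gene tested within 1 Mb of Cdkn2a (left) and within 5 Mb of Rb1 (right), by distance from the middle of the member in Mb, positive toward its 3′ side. Cdkn2a and Cdkn2b stand above 0 between lower genes on both sides, with fitted values that depend on the prior count since J110 had 0 counts, and 40 of the 42 genes around Rb1 stand below 0.

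The other member with such a neighbourhood was Cdk6, where 21 of 24 genes tested within 5 Mb were lower in SSM3 (87.5%) and none passed as higher. Their median was -0.83, a smaller change than the -3.23 of Cdk6, and 48.2% of the genes tested on chromosome 5 were lower. Around Ccnd1, 4 of 7 genes tested within 1 Mb were higher in SSM3 and 2 were lower, with a median of 0.58, beside 0.42 over the genes tested on chromosome 7, of which 25.7% were lower.

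The rest of the G1/S machinery was read from lists of genes by role. Several list genes share exons with other genes, among them Cdk2, Ccna2, Ccne2, Mcm7, Tk1, Plk1, Ezh2, Ddb1 and Rbbp4. Their directions were not checked against those genes. Of 85 genes tested in these lists, 73 passed, beside 77.7% of all genes tested, 29 of them higher in SSM3 and 44 lower, and the median log2 fold change was -0.27. With library size only, which moves the median of all genes from -0.014 to 0.16, the split was 33 higher and 31 lower and the median -0.097, so the excess of lower genes depends on the scaling. Of 10 list medians, that of the Cdkn2a repressors changed sign under that scaling. Tested against a change of 1.5-fold, 27 of the 85 passed, a smaller share than over all genes tested, whose count is given with the alternatives below.

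Downstream of the D-type cyclins, CDK2 and its cyclins split. Of 5 genes tested, 3 were higher in SSM3, among them Cdk2 itself at 1.05 (SE 0.14, adjusted p = 3.18e-07) and Cdc25a, its activating phosphatase, at 0.68 (SE 0.12, adjusted p = 1.48e-05, edgeR). Cdk2 shares exons with another gene, as do Ccna2 and Ccne2, and their counts were not set against those genes. Ccna2, cyclin A2, fell from 211 ± 16.4 CPM to 99.2 ± 4.19 CPM, at -1.09 (SE 0.083, adjusted p = 2.20e-11, edgeR), and Ccne2, cyclin E2, fell by 0.72 (SE 0.093), while Ccne1, cyclin E1, rose by 1.62 (SE 0.13). The pocket protein and E2F list had 12 genes tested, 4 higher and 7 lower, or 4 higher and 4 lower with library size only. E2f1 and E2f2, activating members of the family, rose by 0.66 (SE 0.12) and 1.60 (SE 0.14), Tfdp1, the DP1 partner of the E2Fs, fell by 0.71 (SE 0.10), and E2f5, a repressive member, was lower by 0.30 (SE 0.12, adjusted p = 0.0287, edgeR) with libraries that overlapped. In the core of the DREAM complex, which represses cell cycle genes in quiescence, 2 genes were higher (Rbbp4 at 0.34, Lin37 at 1.21), 2 were lower (Lin9 at -0.36, Lin54 at -1.92) and 1 did not pass. With library size only, 2 were higher and 1 was lower.

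E2F target genes went both ways, with 6 of 17 higher, 10 lower and 1 that did not pass, and a median of -0.32. Library size only gave 6 higher and 8 lower. Mcm7, a subunit of the replicative helicase, rose from 125 ± 2.39 CPM in J110 to 310 ± 28.1 CPM in SSM3, at 1.31 (SE 0.079, adjusted p = 2.71e-13, edgeR), while Mcm3 of the same complex fell by 0.50 (SE 0.077, adjusted p = 2.48e-06). Rrm2, the ribonucleotide reductase subunit, fell from 347 ± 17.4 to 105 ± 3.82 CPM, at -1.72 (SE 0.076, adjusted p = 6.35e-16), and Tk1, thymidine kinase, rose by 0.31 (SE 0.079, adjusted p = 0.000905, edgeR). Of 10 mitosis markers 3 were higher, 5 were lower and 2 did not pass, or 4 higher and 4 lower with library size only. Mki67, the usual marker of cycling cells, was at -0.14 (adjusted p = 0.120, edgeR) and Top2a, a topoisomerase, at 0.01 (adjusted p = 0.899), while Ccnb1, cyclin B1, rose by 0.44 and Cdk1 and Plk1 fell by 0.59 and 0.70. In bulk RNA fewer cycling cells and less RNA per cell cannot be told apart.

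Other genes act on the proteins of the axis. Of 11 genes of cyclin and inhibitor turnover, 5 were higher, 3 were lower and 3 did not pass, with a median of 0.24. Library size only gave 6 higher and 2 lower. Ddb1, an adaptor of CUL4 ubiquitin ligases, rose by 0.44 (SE 0.064) and Cks1b, the cofactor with which SKP2 recognises p27, by 0.33 (SE 0.079), while Cul4b fell by 0.49 (SE 0.11) and Fbxo4 by 0.33 (SE 0.12). Of 5 genes of CDK activation and folding 4 were lower and 1 did not pass, with a median of -0.47, where 39.2% of all genes tested were lower. With library size only, 1 was higher, 3 were lower and the median was -0.30. Cdc37, the chaperone partner that folds CDK4, fell by 0.47 (SE 0.085, adjusted p = 2.59e-05, edgeR), and Ccnh, the cyclin of the CDK-activating kinase, by 0.43 (SE 0.10, adjusted p = 0.000701).

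**Figure D5:**
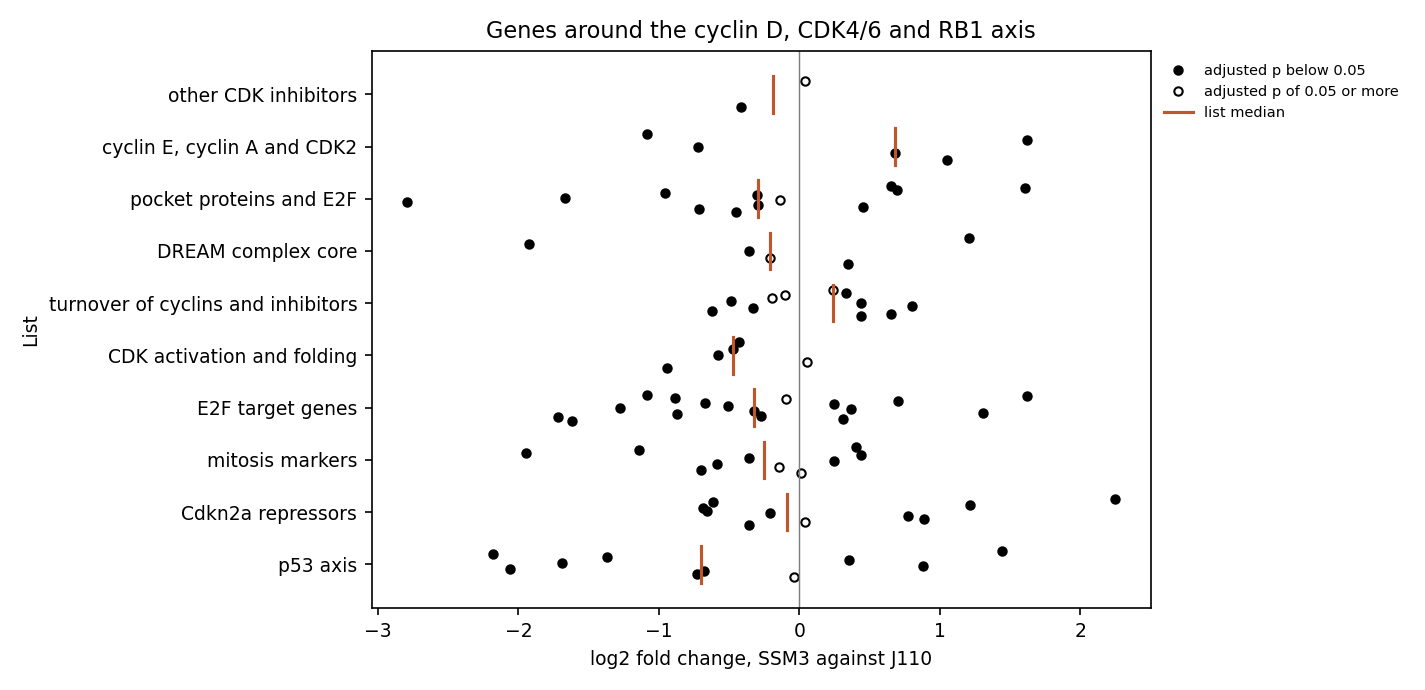
Log2 fold change of SSM3 against J110 for each gene tested in 10 lists around the cyclin D, CDK4/6 and RB1 axis, with filled points for an adjusted p below 0.05, open points for the rest and a bar at the median of a list. Filled points lie on both sides of 0 in each list except the other CDK inhibitors and CDK activation, where the only points above 0 are open, and the bars run from -0.70 for the p53 axis to 0.68 for cyclin E, cyclin A and CDK2.

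Markers of other cell types were at low levels or moved with the line. Of 8 fibroblast markers none passed the filter and their summed level was 1.54 to 2.18 CPM in J110 and 0.891 to 2.34 CPM in SSM3, with Col1a2, Lum and Pdgfrb at 0 in every library. Of 9 leukocyte markers, 2 were tested, the sum was 29.2 to 37.0 CPM in J110 and 14.7 to 17.2 CPM in SSM3, Cd3g and Itgam were at 0 throughout, and Ptprc had 2 counts in 1 SSM3 library and 0 elsewhere. Cd68, a lysosomal protein of macrophages and other cells, fell from 18.5 ± 3.79 to 1.42 ± 0.510 CPM (log2 fold change -3.70, SE 0.29, adjusted p = 2.99e-11, edgeR), and Csf1r, a macrophage receptor, had 14.3 and 14.2 CPM (adjusted p = 0.956). Of 7 endothelial markers, 2 were tested and the sum was 159 to 182 CPM in J110 and 3.18 to 4.90 CPM in SSM3. Nearly all of it was Cdh5, the endothelial cadherin, with 836, 790 and 856 counts in J110 and 0, 2 and 0 in SSM3. Vwf, von Willebrand factor, went the other way, with 1, 1 and 4 counts in J110 and 21, 17 and 16 in SSM3 (log2 fold change 3.17, SE 0.51, adjusted p = 4.76e-06, edgeR), while Tie1 and Emcn were at 0 throughout and Pecam1 had at most 4 counts. Kdr, a VEGF receptor gene, had 8, 11 and 6 counts in J110 and 0 in each SSM3 library. Epithelial markers moved the other way, with 7 of 8 higher in SSM3 and a sum of 3061 to 3198 CPM in J110 and 13333 to 14702 CPM in SSM3. These levels differ between the lines beside every G1 control gene above, and their part in those results was not tested.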

How the data were processed

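QuantSeq 3′ libraries of J110 and SSM3 cells were sequenced as single-end reads. The authors trimmed them with cutadapt 2.1, mapped them to mm10 with HISAT2 2.0.4, counted them per gene with featureCounts (Subread 2.0.0) and deposited raw counts without normalisation. All 6 columns were used and grouped by the labels.

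Totals over all genes gave depth. Genes passing filterByExpr were scaled with TMM and tested with edgeR 4.0.16 (robust quasi-likelihood fit, R 4.3.3), tested on simulated data beforehand. A standard error is the size of the log2 fold change divided by the square root of F. CPM used TMM library sizes, and SDs are over 3 libraries. Symbols, exons and coordinates came from GENCODE on GRCm38, which held 52489 of the 52636 identifiers. Promoters are RefSeq's.

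The members and lists were chosen with earlier results of these data known. Named genes are the members, per list the 2 genes of highest mean log2 CPM called in each direction, every tested marker and neighbour, the exon-sharing genes, Ncoa3 and per member the 2 genes of nearest pattern. Wincr1, Itm2b, Med4, Sucla2, Fndc3a, Lcp1, Dmtn, Cdkn2c, Cdkn1c, Ccne1, Mki67, Top2a and the untested markers were named after their values were seen. Alternatives included DESeq2 1.42.0, limma-voom (limma 3.58.1), other scalings, filters and thresholds, and leaving out each library. Some values of genes under the naming rule are not reported here.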

Additional observations from a re-analysis of the deposited data

How the results depend on the processing

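Across 18 alternative settings and 1 added after seeing the data (without J110 replicate 3 and SSM3 replicate 2 together), no member changed direction. Ccnd1, Ccnd3, Cdk6, Cdkn1a, Cdkn1b, Cdkn2a, Cdkn2b and Rb1 passed under each alternative that tested them. A filter of at least 10 counts in every library leaves out Ccnd2, Cdkn2a and Cdkn2b, and leaving out genes that share exons leaves 4 members, of which 4 passed. Cdk4 did not pass for a change above 1.5-fold (glmTreat, adjusted p = 1), at a threshold of 0.01 or without J110 replicate 1 or 2, and its adjusted p ranged from 5.63e-05 to 1. Ccnd2 passed under limma-voom (log2 fold change -2.97, adjusted p = 0.000442), without SSM3 replicate 1, without SSM3 replicate 2 and without J110 replicate 3 and SSM3 replicate 2 (-1.73, adjusted p = 0.0257), and ranged from 1.51e-08 to 0.144.

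Over all genes 9546 passed, 6297 for a change above 1.5-fold, 5817 of 7395 without genes that share exons, and 8948 by DESeq2. In the lists around the axis 27 of 85 passed for a change above 1.5-fold, beside 6297 of the 12284 genes tested. Without that limit 73 of the 85 passed. Leaving out each library gave 9263 to 9574 genes, 8 to 10 members and 66 to 73 genes of the lists. The Ccnd1 share of D-type cyclin counts then ranged from 96.0% to 96.4% in J110 and 59.1% to 61.1% in SSM3, the Ccnd2 share from 0.893% to 1.08% and 0.464% to 1.72%, the Ccnd3 share from 2.68% to 2.89% and 37.2% to 40.2%, and the Cdk6 share of Cdk4 and Cdk6 from 63.4% to 65.2% and 13.3% to 14.7%.

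Replicate numbers were not treated as pairs: deviations of same-numbered libraries correlated at 0.0118, 0.0155 and 0.0268. Each was higher than with a library of another number (-0.0207 to 0.00756). All were near 0, so they do not show whether libraries were paired. With the replicate number as a block, 9480 genes, 9 members and 72 genes of the lists passed, and no call of a member changed.

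Depth limits Ccnd2, Cdkn2b and Rb1 most. Exons shared with genes on the opposite strand limit the D-type cyclins, Cdk4 and Rb1, and exons shared with other genes limit several list genes. The lines differ in origin and culture together.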

Other observations

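The genes nearest to each member in pattern over the 6 libraries were found by the root mean square distance of centred log2 CPM. The search took 5370 or 5371 genes that reached a mean of 10 CPM and shared no exon with any other counted gene. With 3 libraries in each of 2 lines, the distance mostly reflects the difference between the lines, and it is given as a description. Nearest to Ccnd1 were Cnn2, a calponin of smooth muscle and other cells (0.045, 153 CPM in J110 and 16.8 in SSM3), and Fam171a1 (0.10). Nearest to Cdk6 were Itm2b, which lies beside Rb1 (0.081), and Plxna2, a semaphorin receptor gene (0.091).

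Nearest to Cdkn1b were Mcee, a mitochondrial epimerase gene (0.028, 26.2 CPM in J110 and 58.0 in SSM3), and Ptcd2 (0.039), and nearest to Cdkn1a were Arf3 (0.047) and Capg, an actin-capping protein gene (0.056). Nearest to Ccnd3 were Rabl3 (0.048) and Rab29 (0.056), both of the RAB family of small GTPases. Nearest to Cdk4 were Rnf187 (0.030) and Tpx2, a spindle assembly gene (0.032).

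For Cdkn2a the nearest genes were Auts2 (0.056, 0 CPM in J110 and 40.1 in SSM3) and Gm2568 (0.11). Cdkn2a and Cdkn2b had 0 counts in J110, so their distances mostly reflect the SSM3 level and the prior count. Nearest to Rb1 were Cd2ap on chromosome 17 (0.068) and Zc3h13 (0.083), a gene of chromosome 14 like Rb1 itself. Cdkn2b and Ccnd2, with the fewest counts, had no gene as near among those searched: Pdcd4 (0.31) and Prag1 (0.32) for Cdkn2b, and Ccng2 (0.62) and Gtse1 (0.79) for Ccnd2.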
